A study of Mus musculus with 36 samples.

Results

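RNA sequencing of whole mouse hearts was used to ask which genes differed between mice labelled cSirt4-Tg and control mice after transverse aortic constriction (TAC) with vehicle. The series holds 36 libraries from 6 groups of 6 mice, and the comparison takes the 12 libraries whose labels read TAC and Vehicle. The 6 cSirt4-Tg-TAC-Vehicle libraries (Tg-TAC 1 to 6) were set against the 6 Control-TAC-Vehicle libraries (Con-TAC 1 to 6), across all genes. Both groups share the surgery and the vehicle and differ in the genotype label. Beside them 4 further groups of 6 were used: cSirt4-Tg-Sham-Vehicle with Control-Sham-Vehicle, and cSirt4-Tg-TAC-MitoQ with Control-TAC-MitoQ, none of whose libraries are among the 12. The labels give no promoter for the transgene, no age and no interval after surgery, and each library is from whole heart tissue. The study was designed to search for routes from mitochondrial reactive oxygen species to worse cardiomyopathy in the transgenic mice.

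Sirt4 encodes a sirtuin of the mitochondrial matrix, an enzyme of the NAD-dependent family that removes acyl and other modifications from metabolic proteins. TAC narrows the aorta, so that the left ventricle pumps against a higher pressure. The loaded heart is known to re-express fetal genes such as the natriuretic peptides, to deposit collagen through activated fibroblasts, to take in macrophages, and to lower its genes of fatty acid oxidation. MitoQ is a ubiquinone linked to a lipophilic cation, which carries this antioxidant into mitochondria.

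The promoters of 3 genes are shown: that of Maged2, the single gene that passed the test of the 12 libraries, and those of Nppa and Nppb, the natriuretic peptide genes by which pressure load is usually read. They are RefSeq sequences of GRCm38.p6 (Maged2 at chrX:150814296-150814595 on the minus strand, where 4 starts are listed, Nppa at chr4:148000472-148000771 and Nppb at chr4:147985650-147985949, both on the plus strand), whereas the coordinates of the deposited table are those of mm39. Capitals mark TATAAA, and in Nppb also GGAATG, which is CATTCC on the other strand; both strands were searched for both motifs.
Maged2: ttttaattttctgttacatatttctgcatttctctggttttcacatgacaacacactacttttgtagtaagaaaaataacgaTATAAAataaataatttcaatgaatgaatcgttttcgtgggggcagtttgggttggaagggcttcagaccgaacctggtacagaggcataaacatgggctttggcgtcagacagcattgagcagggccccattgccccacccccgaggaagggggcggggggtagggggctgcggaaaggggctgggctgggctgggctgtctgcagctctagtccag
Nppa: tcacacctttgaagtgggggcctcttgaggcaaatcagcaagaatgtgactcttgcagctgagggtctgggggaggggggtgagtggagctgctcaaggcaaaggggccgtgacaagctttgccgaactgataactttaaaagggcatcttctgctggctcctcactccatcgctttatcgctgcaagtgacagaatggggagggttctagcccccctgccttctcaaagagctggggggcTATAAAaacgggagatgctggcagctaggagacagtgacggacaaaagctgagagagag
Nppb: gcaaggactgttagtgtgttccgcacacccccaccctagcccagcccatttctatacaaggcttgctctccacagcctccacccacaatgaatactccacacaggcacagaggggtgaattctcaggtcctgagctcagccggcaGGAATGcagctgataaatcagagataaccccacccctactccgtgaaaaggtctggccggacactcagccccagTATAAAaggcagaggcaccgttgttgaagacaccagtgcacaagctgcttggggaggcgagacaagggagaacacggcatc
TATAAA lies 31 bases before the start in Nppb, 9 bases before it in Nppa and 168 bases before it in Maged2, and CATTCC lies 105 bases before it in Nppb. Of 32851 mouse promoters of this length, 13.6% hold TATAAA and 14.7% hold CATTCC. The matches are a description of these windows.

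Depth was 14.8 to 55.4 M recovered reads in the Tg-TAC libraries and 27.0 to 38.0 M in the Con-TAC libraries. Genes of the mitochondrial genome took 13.1 to 19.6% of the reads in Tg-TAC and 17.3 to 24.9% in Con-TAC, and the ribosomal RNA gene Rn18s-rs5 took 2.38 to 11.8% and 1.55 to 9.22%. Cardiomyocyte markers were high in every library, as the heart label implies. Myh6, the adult ventricular myosin heavy chain, had at least 279913 normalized read counts in Tg-TAC and at least 325146 in Con-TAC. A number of unstated meaning stands in each library name; it is 9 to 12 in 4 Tg-TAC and 5 Con-TAC libraries, 7 in Tg-TAC 1, 29 in Tg-TAC 6 and 20 in Con-TAC 6.

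Sirt4, the gene of the label, was not detectably higher in the Tg-TAC hearts. Its normalized read count was 335.4, 329.6, 350.4, 312.6, 370.0 and 472.9 in Tg-TAC 1 to 6, against 314.5, 353.1, 376.6, 363.7, 384.8 and 253.0 in Con-TAC 1 to 6. The groups overlapped, and the highest and the lowest of the 12 values were those of Tg-TAC 6 and Con-TAC 6. The log2 difference of the means was 0.09 (exact permutation test, two-sided, p = 0.528, where 0.00216 is the lowest p that such groups can give). Without Tg-TAC 6 it was 0.01, without Con-TAC 6 it was 0.00, and among the 9 libraries named 9 to 12 it was -0.07. In sham hearts the log2 difference of Sirt4 was -0.11 (limma adjusted p = 0.721), and with MitoQ it was -0.02 (limma adjusted p = 0.984). Sirt4 thus did not separate the labels, and Tg-TAC stands throughout for the libraries labelled cSirt4-Tg.

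Libraries that stood apart within their group bear on most of the counts that follow. Nppa, the atrial natriuretic peptide, was 3535 in Tg-TAC 6 and 94193 to 245197 in the other Tg-TAC libraries, a range of values that only Con-TAC 6 (111264) reached among the controls. Postn, which encodes the matrix protein periostin, was 871 in Tg-TAC 6 and at least 14307 in the other Tg-TAC libraries, while it was 16577 in Con-TAC 6 and no more than 5866 in Con-TAC 1 to 5. On the first principal component, which held 41.8% of the variance, Tg-TAC 6 (58.6) lay on the side of the other controls (16.7 to 53.0) and Con-TAC 6 (-37.3) on that of the other Tg-TAC libraries (-98.3 to -11.7). Tg-TAC 4 was the shallowest library, and it held 2678 normalized read counts of the adipocyte hormone Adipoq, whereas no other Tg-TAC library exceeded 29.7 and no Con-TAC library 21.3; its mean log2 value over 8 lymphocyte and neutrophil markers was 8.83, against at most 5.41 in any other of the 12. Dmd, which encodes dystrophin and was lower in cSirt4-Tg hearts of the other treatments, was 2493 in Tg-TAC 6 and 5230 in Con-TAC 6. Other genes called alike in sham and with MitoQ were mixed between Tg-TAC 6 and Con-TAC 6. Exoc2, lower in the other treatments, was 528 in Tg-TAC 6 and 624 in Con-TAC 6. Klhdc7a (175 and 191), Ndnf (183 and 213) and Ndrg4 (6467 and 10682), higher in the other treatments, were lower in Tg-TAC 6 than in Con-TAC 6. Selenow (2519 and 2102) and Mgl2 (295 and 139), also higher in the other treatments, were higher in Tg-TAC 6. Dcakd (1138 and 555), Dpyd (293 and 234) and Ssbp2 (682 and 652), lower in the other treatments, were likewise higher in Tg-TAC 6. The cause was not tested. Each list below is therefore given for all 12 libraries and for the 9 libraries whose names carry 9 to 12, a range that leaves out Tg-TAC 6 and Con-TAC 6 and was chosen with earlier results of these data known. Tg-TAC 6 and Con-TAC 6 lay on the side of the opposite group in Nppa, Postn and the first component, so leaving them out favours a difference between the groups. Calls and p-values within that range are therefore a description of those 9 libraries and cannot serve as a test of the 12.

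**Figure D1:**
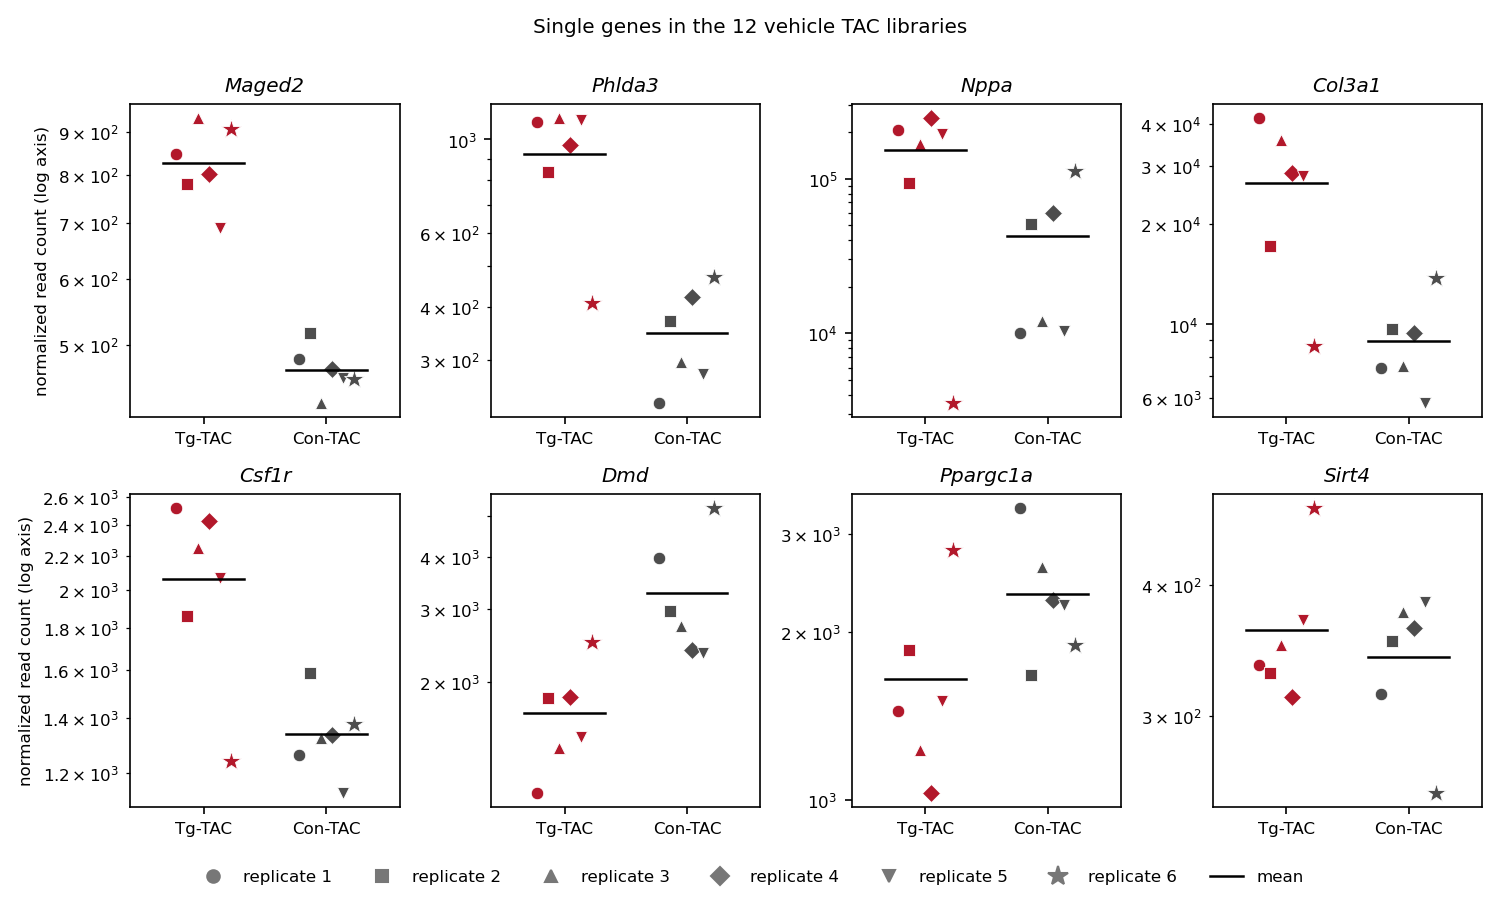
Normalized read count (log axis) of 8 genes in each Tg-TAC and Con-TAC library; symbols stand for the replicates and lines for the means. Maged2 separates the groups, whereas Nppa, Col3a1 and Csf1r of Tg-TAC 6 lie at 3535, 8599 and 1241, within or below the Con-TAC values.

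Over all 12 libraries a single gene passed. Of 14980 genes tested, limma called 1 gene (0.00668%) at an adjusted p under 0.05, higher in Tg-TAC, and 0 lower. At an unadjusted p under 0.05 there were 2446 genes (16.3%), 1352 higher (9.03%) and 1094 lower (7.3%), and the groups did not overlap in 87 higher (0.581%) and 59 lower genes (0.394%). On the recovered reads edgeR called 1 gene and DESeq2 called 434. The count was 1336 (8.92%) without Tg-TAC 6, of which 807 were higher (5.39%) and 529 lower (3.53%), 10 without Con-TAC 6 and 6 without Tg-TAC 2, and it was 1 without any other single library. With all 36 libraries in the fit, 1113 genes (7.43%) were called, 549 higher (3.66%) and 564 lower (3.77%). Among the 9 libraries named 9 to 12 limma called 2695 of the 14980 genes (18.0%), of which 1419 were higher (9.47%) and 1276 lower (8.52%).

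The gene called was Maged2 (ENSMUSG00000025268, mm39 chromosome X, 149589366 to 149597341), a member of the MAGE family whose human counterpart is mutated in a transient antenatal Bartter syndrome. Maged2 had 847.9, 779.3, 935.5, 803.0, 690.4 and 907.6 normalized read counts in Tg-TAC 1 to 6, against 480.9, 516.9, 426.3, 469.0, 457.1 and 455.4 in Con-TAC 1 to 6. Every Tg-TAC value lay above every Con-TAC value, Tg-TAC 6 and Con-TAC 6 included. Maged2 averaged 827 ± 89.7 in Tg-TAC and 468 ± 30.2 in Con-TAC (SD, n = 6 each; log2 difference 0.82 with an SE of 0.09, adjusted p = 0.00624 by limma). The adjusted p ran from 0.00423 to 0.0375 when each library was left out in turn. Maged2 no longer passed with the Rn18s-rs5 share as a covariate (log2 0.77, adjusted p = 0.147), a share that lay above those of all Con-TAC libraries except Con-TAC 2 in every Tg-TAC library. In sham hearts the log2 difference of Maged2 was 0.32 (limma adjusted p = 0.123) and with MitoQ it was 0.13 (adjusted p = 0.884).

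The genes next in order of p did not pass, and several of them also separated the groups. The first was Gm10925, at 135 to 346 in Tg-TAC and 330.5 to 580 in Con-TAC (log2 -1.41, SE 0.21, limma adjusted p = 0.0966), whose overlap came from Tg-TAC 2 and Con-TAC 6. Gm28437 (log2 -1.46, adjusted p = 0.0966) and mt-Co3, given with the mitochondrial transcripts, also had negative differences; these genes can share reads with near-identical mitochondrial or nuclear copies, so their values are uncertain. Among the genes with positive differences, Bola2, whose product helps to pass on iron-sulfur clusters, was 367 to 447 in Tg-TAC and 235 to 300 in Con-TAC. Eif6, a factor that keeps the large ribosomal subunit from joining the small one, was 981 to 1249 in Tg-TAC and 768 to 881 in Con-TAC. Selenom, a selenoprotein of the endoplasmic reticulum, was 669 to 959 in Tg-TAC and 352 to 574 in Con-TAC. The ranges of these genes did not overlap, and neither did those of Plac9, at 735 to 1200 in Tg-TAC and 471 to 615 in Con-TAC. Their log2 differences were 0.62, 0.49, 0.75 and 0.69 (limma adjusted p = 0.0966 for each of Bola2, Eif6, Selenom and Plac9). Phlda3, a p53 target whose product restrains Akt signalling, had 408 to 1123 in Tg-TAC and 237 to 472 in Con-TAC; Tg-TAC 6 alone lay inside the Con-TAC range (log2 1.38, SE 0.25, adjusted p = 0.109). Among the libraries named 9 to 12, Phlda3 had a log2 difference of 1.67 (adjusted p = 0.0011), and in sham hearts 0.93 (adjusted p = 0.0132).

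Genes of hypertrophic growth had higher medians in the Tg-TAC hearts, but none passed the test. Nppa had a median of 180557 in Tg-TAC and 31262 in Con-TAC, with a log2 difference of 1.72 (SE 0.99, limma adjusted p = 0.383). Nppb, the B-type natriuretic peptide, was 10169 to 44082 in Tg-TAC (median 27200) and 4882 to 30514 in Con-TAC (median 18633; log2 0.69, adjusted p = 0.415). Ankrd1, a load-responsive ankyrin repeat protein of the sarcomere and nucleus, was 44114 in Tg-TAC 6 and 196013 to 270939 in the other Tg-TAC libraries, against 89661 to 218043 in Con-TAC (log2 0.36, adjusted p = 0.672). The groups overlapped in each of these genes, and Tg-TAC 6 was the lowest of all 12 libraries in Nppa and Ankrd1 and the lowest of Tg-TAC in Nppb. Myh7, the slow myosin heavy chain of the fetal ventricle, was 20150 to 122433 in Tg-TAC and 18236 to 204780 in Con-TAC, the highest being Con-TAC 6, and Acta1, skeletal actin, was 9532 to 192358 in Tg-TAC and 27540 to 107859 in Con-TAC. Their log2 differences of 0.30 and -0.13 turned direction under other settings, Myh7 with the Rn18s-rs5 share as a covariate (-0.10) and Acta1 without Tg-TAC 6 (0.43) and under edgeR (0.44), among others. Acta2, smooth muscle actin, averaged 6053 ± 1483 in Tg-TAC and 2347 ± 1122 in Con-TAC (SD, n = 6 each; log2 1.46, SE 0.28, adjusted p = 0.114).

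Of the 20 fetal and hypertrophy genes listed, 18 passed the filter on low values, and 15 of the 18 had a positive difference (50.1% of all genes tested did) with a median of 0.58 on the log2 scale (0.00 over all genes). None was called, and among the libraries named 9 to 12, 10 were called higher (9.47% of all genes were) and 1 lower (8.52% of all genes were) with a median of 1.17. In those libraries, chosen without Tg-TAC 6 and Con-TAC 6, Nppa had a log2 difference of 3.00 (limma adjusted p = 0.0121) and Ankrd1 0.85 (adjusted p = 0.0215). Nppb (1.08, adjusted p = 0.14) and Myh7 (1.27, adjusted p = 0.0707) were not called there. In sham hearts, where limma called 884 of 14904 genes (5.93%), 632 of them higher (4.24%), 8 of 17 members were called higher with a median of 0.36. With MitoQ, where 26 of 14893 genes were called (0.175%), 18 higher (0.121%) and 8 lower (0.0537%), none of 18 members was called and the median was 0.05. The 26 became 629 without the third Control-TAC-MitoQ library, and list members were not counted in that setting. The same limit holds for the MitoQ counts of the lists below. The mean log2 value of the list was 10.5 in Tg-TAC 6, against 12.2 to 12.8 in the other Tg-TAC libraries and 10.7 to 12.5 in Con-TAC; in sham hearts it was 10.8 to 11.7 in Tg and 10.2 to 10.7 in controls.

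**Figure D2:**
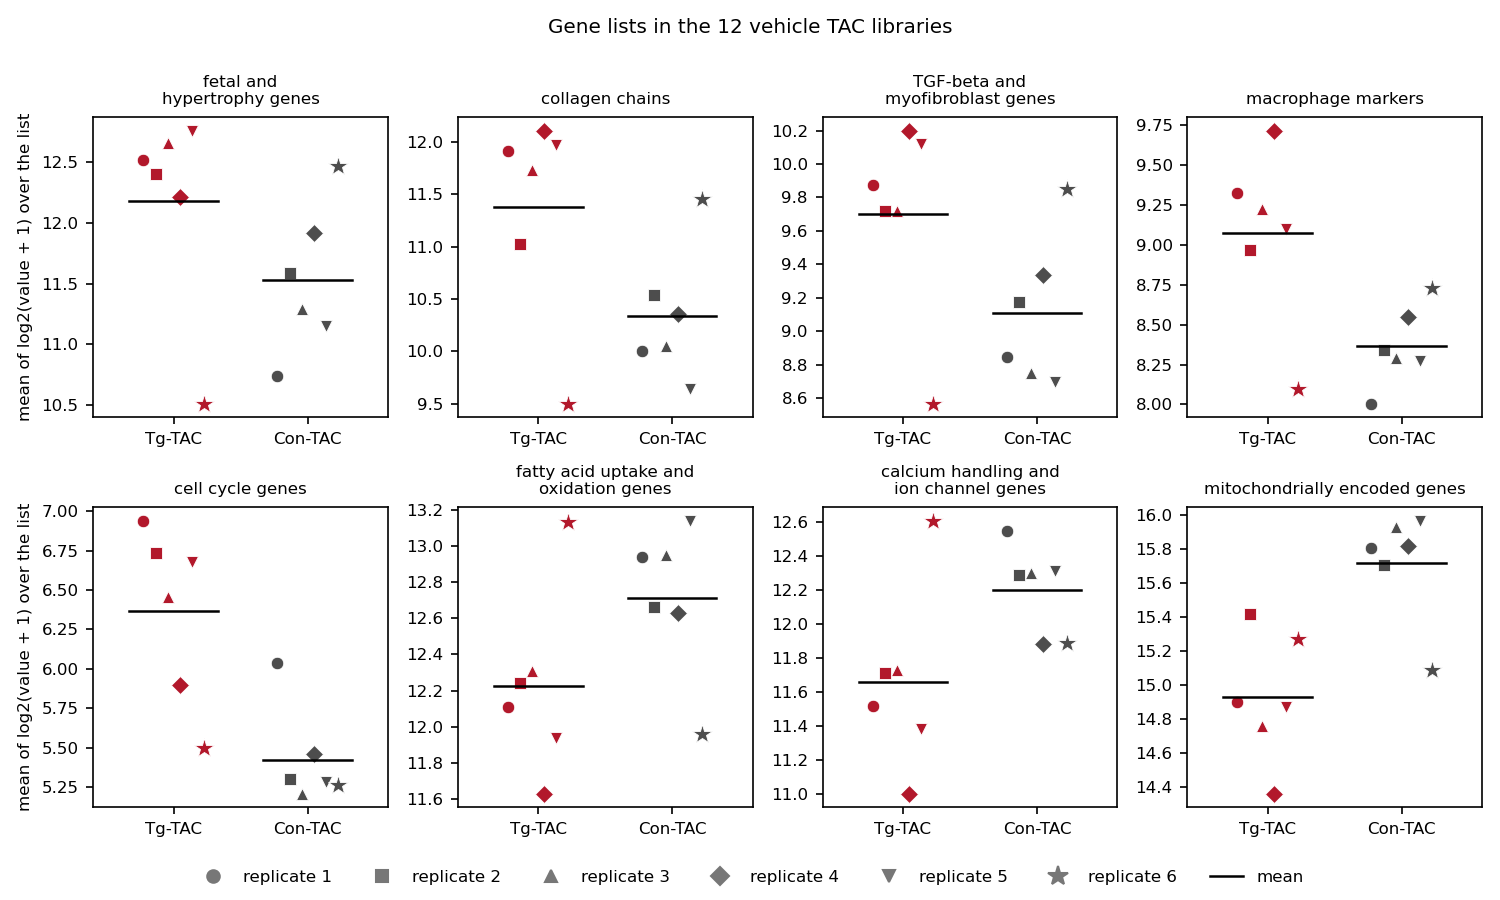
Mean of log2(value + 1) over the tested genes of 8 lists in each Tg-TAC and Con-TAC library; symbols stand for the replicates and lines for the group means. Tg-TAC 6 lies within the Con-TAC range or past its far end in each list (collagen chains 9.50), and Con-TAC 6 has the highest control value of the collagen chains (11.5) and the lowest of the mitochondrially encoded genes (15.1).

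Collagens and other matrix genes had positive differences throughout, with no member past the threshold. Col3a1, which encodes the collagen of compliant fibres, was 41587, 17260, 35709, 28511, 27809 and 8599 in Tg-TAC 1 to 6, against 7418, 9664, 7481, 9449, 5805 and 13799 in Con-TAC 1 to 6. All Tg-TAC libraries except Tg-TAC 6 lay above all controls, and the log2 difference was 1.46 (SE 0.34, limma adjusted p = 0.147). Col1a1, the main chain of stiff collagen, was 4239 to 18927 in Tg-TAC (median 16296) and 2965 to 9575 in Con-TAC (median 4244; log2 1.39, adjusted p = 0.184). Eln, which encodes elastin, was 1638 to 3875 in Tg-TAC and 797 to 1645 in Con-TAC, overlapping by Tg-TAC 6 and Con-TAC 4 alone (log2 1.11, SE 0.25, adjusted p = 0.145), and it differed by 0.03 in sham hearts (adjusted p = 0.963). Postn had medians of 15856 in Tg-TAC and 3671 in Con-TAC (log2 1.77, SE 0.86, adjusted p = 0.318), and Thbs4, a matricellular thrombospondin, had medians of 3478 and 472 (log2 1.77, adjusted p = 0.369).

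All 19 collagen chains tested had a positive difference, and so had all 31 other matrix and matricellular genes, with medians of 1.13 and 1.12. No member was called over the 12 libraries and none separated the groups. Among the libraries named 9 to 12, 17 of the 19 collagens and 23 of the 31 other matrix genes were called higher (9.47% of all genes were), each list with a median of 1.66, and Col1a1 (1.81), Col3a1 (1.76) and Postn (2.87) were among them (limma adjusted p = 0.00221, 0.00221 and 0.00947). In sham hearts 10 of 17 collagens and 17 of 30 other matrix genes were called higher (4.24% of all genes were), with medians of 0.59 and 0.68, and with MitoQ none was called and the medians were 0.24 and 0.26. Of the Control-TAC-MitoQ libraries, the third had 51015.5 in Col3a1 and the others 5208.5 to 13857.4. The cSirt4-Tg-TAC-MitoQ libraries had 17177.8 to 21176.8. Of 23 enzymes that crosslink or remodel matrix, 19 were positive with a median of 0.69, and 13 were called higher among the libraries named 9 to 12 (median 1.02). The 16 fibroblast markers, which include collagen genes, had a median of 0.47 with 14 positive, and of 0.56 among the libraries named 9 to 12 with 8 called higher and 1 lower; their mean log2 value reached 12.3 in Tg-TAC and 11.9 in Con-TAC. In whole-heart RNA, more cells of a type and more RNA per cell cannot be told apart.

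Ligands and targets of TGF-beta divided the libraries in the same way. Tgfb2, a TGF-beta ligand, was 232 in Tg-TAC 6 and 1495 to 2909 in Tg-TAC 1 to 5, against 1934 in Con-TAC 6 and 192 to 658 in Con-TAC 1 to 5 (log2 1.39, SE 0.61, limma adjusted p = 0.29). Ccn2, a secreted target of TGF-beta and mechanical load, was 2137 to 39670 in Tg-TAC (median 19946) and 3315 to 19860 in Con-TAC (median 4602; log2 1.37, adjusted p = 0.305). Meox1, a homeobox factor of activated fibroblasts, was 318 to 2067 in Tg-TAC (median 1467) and 265 to 1470 in Con-TAC (median 598; log2 1.06, adjusted p = 0.311). For all 3 genes the overlap of the groups came from Tg-TAC 6 and Con-TAC 6. Of 29 TGF-beta and myofibroblast genes tested, 27 were positive with a median of 0.41, and 17 were called higher among the libraries named 9 to 12 (9.47% of all genes were). In those libraries, which leave out Tg-TAC 6 and Con-TAC 6, Tgfb2 had 2.27, Ccn2 2.33 and Meox1 1.62 (limma adjusted p = 0.00405, 0.00394 and 0.0195). In sham hearts 6 of 29 were called higher (4.24% of all genes were; median 0.29), and with MitoQ none was called (median -0.03).

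**Figure D3:**
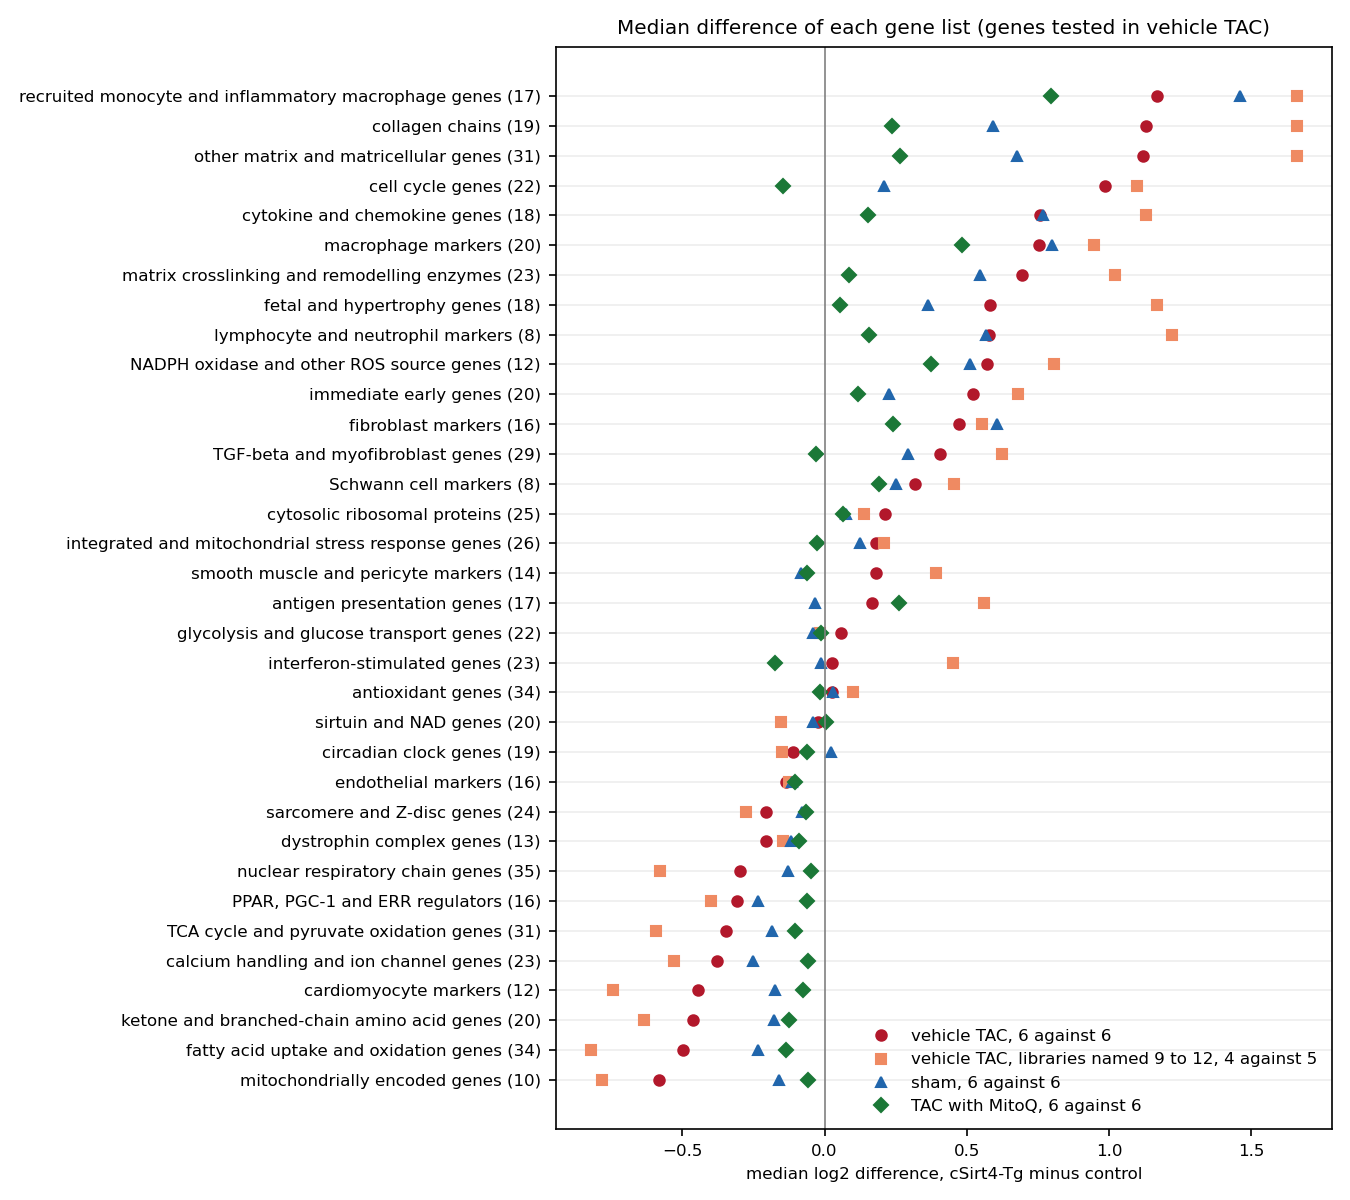
Median log2 difference, cSirt4-Tg minus control, of each list with at least 8 genes tested in vehicle TAC (number in brackets), for the 12 vehicle TAC libraries, the 9 of them named 9 to 12, the 12 sham and the 12 MitoQ libraries. Recruited monocyte and inflammatory macrophage genes (1.17) and collagen chains (1.13) have the highest medians over the 12 vehicle TAC libraries, and mitochondrially encoded genes (-0.58) the lowest.

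Macrophage genes had positive differences, none of them called. Csf1r, the receptor on which macrophages depend for survival, was 2518, 1861, 2254, 2431, 2071 and 1241 in Tg-TAC 1 to 6, against 1262, 1586, 1324, 1336, 1133 and 1377 in Con-TAC 1 to 6. Only Tg-TAC 6 lay within the Con-TAC range (log2 0.60, SE 0.15, limma adjusted p = 0.175). Ccr2, the receptor that brings monocytes into tissue, was 157 to 476 in Tg-TAC, the highest being Tg-TAC 4, and 42.8 to 236 in Con-TAC (log2 1.19, adjusted p = 0.225). Mmp12, the elastase of macrophages, was 16.2 to 50.9 in Tg-TAC and 1.92 to 24.4 in Con-TAC (log2 1.77, adjusted p = 0.196), and here Tg-TAC 6 (30.1) lay above every control while Tg-TAC 4 and 5 did not. Spp1, which encodes osteopontin, was 5.78 in Tg-TAC 6 and 114.5 to 780 in Tg-TAC 1 to 5, against 888 in Con-TAC 6 and 1.10 to 63.5 in Con-TAC 1 to 5 (log2 2.41, SE 1.39, adjusted p = 0.388).

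All 20 macrophage markers had a positive difference (median 0.75), as had 16 of 17 genes of recruited monocytes and inflammatory macrophages (median 1.17). None was called over the 12 libraries. Among those named 9 to 12, 14 of the 20 and 13 of the 17 were called higher (9.47% of all genes were), including Mrc1, the mannose receptor of resident macrophages (log2 0.80, limma adjusted p = 0.00263), Adgre1, the F4/80 antigen (1.05, adjusted p = 0.00485), and Ccr2 (1.66, adjusted p = 0.0187). In sham hearts 14 of 20 and 14 of 16 were called higher (4.24% of all genes were) with medians of 0.80 and 1.46, and with MitoQ none was called, with medians of 0.48 and 0.80. Ccr2 was 1033 in the third Control-TAC-MitoQ library and 89.0 to 124 in the others, against 155 to 649 in the cSirt4-Tg-TAC-MitoQ libraries. The mean log2 value of the macrophage list was 8.09 in Tg-TAC 6 and 8.97 to 9.72 in the other Tg-TAC libraries, against 8.00 to 8.73 in Con-TAC. Lymphocyte and neutrophil markers had 8 members tested, all positive with a median of 0.58, and of 1.22 among the libraries named 9 to 12, with none called in either; their mean stood out in Tg-TAC 4 as given above, and the part of that library's immune and adipocyte RNA in the macrophage values was not tested. Interferon-stimulated genes had a median of 0.03 over 23 members (14 positive) over the 12 libraries and of 0.45 among those named 9 to 12, where 8 were called higher, with mean log2 values of 7.26 to 8.60 in Tg-TAC and 7.38 to 9.95 in Con-TAC, the highest being Con-TAC 6.

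Subunits of the phagocyte NADPH oxidase had positive differences in Tg-TAC, below the threshold. Cybb, the catalytic subunit of the phagocyte NADPH oxidase, was 323 to 974 in Tg-TAC (median 566) and 215 to 758 in Con-TAC (median 340; log2 0.67, SE 0.29, limma adjusted p = 0.28), with Con-TAC 6 the highest control. Its partner Cyba had a log2 difference of 0.47 (adjusted p = 0.196), and the cytosolic subunit Ncf4 had 1.26 (adjusted p = 0.205). Of 12 genes of NADPH oxidases and other sources, 8 were positive with a median of 0.57 (0.81 among the libraries named 9 to 12), and 7 were called higher and 1 lower among the libraries named 9 to 12, where 9.47% of all genes were called higher and 8.52% lower. The lower member was Maob, monoamine oxidase B (-1.14, limma adjusted p = 0.00165).

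Antioxidant genes as a list stayed near the median of all genes, at 0.02 over 34 members with 18 positive (0.10 among the libraries named 9 to 12), but 2 of them separated the groups (0.581% of all genes did so upwards). Txn1, which encodes cytosolic thioredoxin, was 1454 to 1635 in Tg-TAC and 1164 to 1437 in Con-TAC (log2 0.26, SE 0.08, limma adjusted p = 0.196). Prdx4, the peroxiredoxin of the endoplasmic reticulum, was 426 to 602 in Tg-TAC and 292 to 424 in Con-TAC (log2 0.38, SE 0.11, adjusted p = 0.197). Neither was called among the libraries named 9 to 12 (adjusted p = 0.099 and 0.141). There 8 of the 34 were called higher and 3 lower, where 9.47% of all genes were higher and 8.52% lower, so that the lower count was near the share of all genes. The glutathione peroxidase Gpx1 was among the higher (0.79, limma adjusted p = 0.00508), and the mitochondrial enzymes Sod2 (-0.73, adjusted p = 0.0086) and Prdx3 (-0.67, adjusted p = 0.0172) were among the lower.

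Genes of mitochondrial fuel use had negative differences in Tg-TAC. Acacb, whose product makes the malonyl-CoA that restrains entry of fatty acids into mitochondria, was 11480 in Tg-TAC 6 and 4762 to 5689 in the other Tg-TAC libraries, against 7254 to 11311 in Con-TAC. The Tg-TAC libraries other than Tg-TAC 6 all lay below the controls (log2 -0.58, SE 0.20, limma adjusted p = 0.224). Ppargc1a, which encodes the coactivator PGC-1alpha, was 1029 to 2808 in Tg-TAC (median 1474) and 1675 to 3333 in Con-TAC (median 2259; log2 -0.55, adjusted p = 0.265). Esrrb, an orphan nuclear receptor of the family that PGC-1alpha coactivates, was 586 to 757 in Tg-TAC and 769 to 943 in Con-TAC, with no overlap (log2 -0.40, SE 0.09, adjusted p = 0.144). Of the 16 PPAR, PGC-1 and ERR regulators, Esrrb alone separated the groups (0.394% of all genes did so downwards), 13 had a negative difference, and 10 were called lower among the libraries named 9 to 12 (8.52% of all genes were), among them Esrrg (-0.61, adjusted p = 0.00737) and Ppargc1a (-0.79, adjusted p = 0.0213).

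The metabolic lists had small negative differences in nearly every member. Of 34 genes of fatty acid uptake and oxidation 32 were negative (49.9% of all genes were) with a median of -0.50, of 31 genes of pyruvate oxidation and the TCA cycle all were negative with a median of -0.35, and of 35 nuclear genes of the respiratory chain all were negative with a median of -0.30. None was called over the 12 libraries, and 27 of 34, 24 of 31 and 29 of 35 were called lower among those named 9 to 12 (8.52% of all genes were), with medians of -0.82, -0.59 and -0.58. The fatty acid carrier Cd36 (-0.65, limma adjusted p = 0.0137), the long-chain acyl-CoA synthetase Acsl1 (-0.93, adjusted p = 0.00478) and the complex I subunit Ndufs1 (-0.79, adjusted p = 0.00936) were among these. Without Tg-TAC 6 alone, 13 of 34, 5 of 31 and 1 of 35 were called lower (3.53% of all genes were), with medians of -0.66, -0.45 and -0.43. In sham hearts 10 of 34, 2 of 31 and 1 of 35 were called lower (1.69% of all genes were) and 1 TCA cycle gene higher, and with MitoQ none was called. Of 20 genes of ketone and branched-chain amino acid use, 18 were negative with a median of -0.46, and 17 were called lower among the libraries named 9 to 12 (median -0.64). Glycolysis and glucose transport genes had a median of 0.06 with 12 of 22 positive; among the libraries named 9 to 12, 3 were called higher and 8 lower (median -0.01), and the insulin-regulated transporter Slc2a4 was lower (-1.01, adjusted p = 0.00583) and the hexokinase Hk1 higher (0.70, adjusted p = 0.00405).

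Transcripts of the mitochondrial genome had lower values as well. The transcript mt-Co1, of a catalytic subunit of complex IV, was 1140170 to 2078890 in Tg-TAC (median 1625550) and 1696700 to 2749720 in Con-TAC (median 2403340; log2 -0.53, SE 0.20, limma adjusted p = 0.249). All 10 mitochondrially encoded genes tested were negative with a median of -0.58, and all 10 were called lower among the libraries named 9 to 12 (8.52% of all genes were; median -0.78). Their mean log2 value was 14.4 to 15.4 in Tg-TAC, and it was 15.1 in Con-TAC 6 and 15.7 to 16.0 in Con-TAC 1 to 5. Tg-TAC 6, at 15.3, lay within the range of its own group in this list, below every control except Con-TAC 6. The subunit mt-Co3 was 73.7 to 227 in Tg-TAC and 185 to 379 in Con-TAC (log2 -1.49, SE 0.26, adjusted p = 0.0966). Its counts were far below those of mt-Co1, and mitochondrial DNA has near-identical nuclear copies among which reads can be split, so this value is uncertain. The median of the 10 genes was -0.16 in sham hearts and -0.06 with MitoQ, with none called. In vehicle TAC without Tg-TAC 6 alone, 3 of the 10 were called lower (3.53% of all genes were), with a median of -0.61.

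Among the 20 sirtuin and NAD genes tested, 10 were positive and 10 negative with a median of -0.02, and among the libraries named 9 to 12, 2 were called higher and 8 lower (9.47% and 8.52% of all genes were; median -0.15). Sirt7, a nuclear sirtuin, was 362 to 476 in Tg-TAC and 302 to 353 in Con-TAC, without overlap (log2 0.28, SE 0.09, limma adjusted p = 0.207), and its log2 difference was 0.01 in sham hearts and 0.04 with MitoQ. Nmnat3, whose product makes NAD in mitochondria, had a log2 difference of -0.43 and Nnmt, which methylates nicotinamide, 0.83 (adjusted p = 0.205 each).

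Genes of contraction and excitation had lower medians in Tg-TAC hearts. Pln, the gene of phospholamban, which restrains the calcium pump, was 55684 to 178833 in Tg-TAC (median 105925) and 105761 to 188147 in Con-TAC (median 174183; log2 -0.70, SE 0.25, limma adjusted p = 0.235). Atp2a2, the calcium pump itself, had medians of 218174 in Tg-TAC and 343740 in Con-TAC (log2 -0.63, adjusted p = 0.327). Abcc9, the sulfonylurea receptor of the ATP-sensitive potassium channel, was 10557 in Tg-TAC 6 and 2589 to 6217 in the other Tg-TAC libraries, against 6090 to 12816 in Con-TAC (log2 -0.71, adjusted p = 0.26). In these genes Tg-TAC 6 was the highest of its group and Con-TAC 6 the lowest of the controls. Kcnv2, a silent subunit that modifies potassium channels, was 397.7 in Tg-TAC 6 and 14.4 to 75.5 in Tg-TAC 1 to 5, against 61.7 in Con-TAC 6 and 193 to 428 in Con-TAC 1 to 5 (log2 -2.25, SE 0.71, adjusted p = 0.204).

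All 23 calcium handling and ion channel genes tested were negative with a median of -0.38, none was called, and 12 were called lower among the libraries named 9 to 12 (8.52% of all genes were; median -0.53), including Kcnv2 (-3.19, limma adjusted p = 0.00293), Kcnj3, a subunit of the muscarinic potassium channel (-2.32, adjusted p = 0.00394), and Pln (-1.06, adjusted p = 0.00616). In sham hearts 7 of 23 were called lower (1.69% of all genes were; median -0.25), Kcnv2 among them (-1.43, adjusted p = 4.33e-06), and with MitoQ none (median -0.06). The 12 cardiomyocyte markers were all negative, with a median of -0.44, and 7 were called lower among the libraries named 9 to 12 (median -0.74). Their mean log2 value was 17.4 in Tg-TAC 6 and 16.2 to 16.9 in the other Tg-TAC libraries, against 16.6 in Con-TAC 6 and 17.0 to 17.3 in Con-TAC 1 to 5. These markers ran with the calcium handling and metabolic lists across the libraries, and their part in those lists was not tested. Sarcomere and Z-disc genes had a median of -0.21, with 20 of 24 negative, and 4 were called lower among the libraries named 9 to 12 (median -0.28).

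Dmd, which links the cytoskeleton to the membrane, was lower in every Tg-TAC heart than the mean of Con-TAC. It was 1082, 1832, 1391, 1838, 1478 and 2493 in Tg-TAC 1 to 6, against 3980, 2967, 2727, 2387, 2349 and 5230 in Con-TAC 1 to 6. Tg-TAC 6 alone lay inside the Con-TAC range, above Con-TAC 4 and 5, and Dmd averaged 1686 ± 488 in Tg-TAC and 3273 ± 1128 in Con-TAC (SD, n = 6 each; log2 -0.94, SE 0.22, limma adjusted p = 0.151). In sham hearts the log2 difference of Dmd was -1.15 (adjusted p = 7.74e-06) and with MitoQ it was -1.28 (adjusted p = 4.18e-06). Among the libraries named 9 to 12 it was -0.80 (adjusted p = 0.00735). Over all 13 genes of the dystrophin complex the median was -0.21 with 10 negative, and 3 were called lower among the libraries named 9 to 12 (8.52% of all genes were; median -0.15).

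Cell cycle genes had positive differences of about 1 on the log2 scale in vehicle TAC, none of them called. Mki67, the proliferation antigen Ki-67, was 447.6, 377.9, 314.6, 332.3, 352.6 and 152.6 in Tg-TAC 1 to 6, against 221.2, 92.9, 116.1, 123.8, 82.2 and 197.7 in Con-TAC 1 to 6. Tg-TAC 6 alone overlapped the controls, and the log2 difference was 1.26 (SE 0.29, limma adjusted p = 0.145). Ccnb2, cyclin B2 of the entry into mitosis, was 35.8 to 96.4 in Tg-TAC and 17.4 to 28.9 in Con-TAC, with no overlap (log2 1.26, SE 0.28, adjusted p = 0.133); these are low counts. Of 22 cell cycle genes 21 were positive with a median of 0.99, none was called and 1, Ccnb2, separated the groups (0.581% of all genes did so upwards). There were 11 called higher among the libraries named 9 to 12 (9.47% of all genes were; median 1.10) and 15 without Tg-TAC 6 (5.39% of all genes were), and 0 of 22 in sham (median 0.21) and in MitoQ (median -0.15). The difference of the Mki67 effects, vehicle TAC minus sham, was 1.06 (unadjusted p = 0.0289, limma adjusted p = 0.982), and that of Ccnb2 was also 1.06 (adjusted p = 0.982), so a difference between the treatments did not pass. The mean log2 value of the list was 5.50 to 6.94 in Tg-TAC and 5.21 to 6.04 in Con-TAC, with Con-TAC 1 the highest control.

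Stress-response genes as a list differed little. Gdf15, a cytokine secreted by stressed cells, was 19.7 in Tg-TAC 6 and 920 to 2944 in the other Tg-TAC libraries, against 53.9 to 634 in Con-TAC (log2 1.75, SE 1.03, limma adjusted p = 0.392). Atf4, the transcription factor of the integrated stress response, was 1638 to 2948 in Tg-TAC and 1830 to 2579 in Con-TAC (log2 0.18, adjusted p = 0.486). In the list of integrated and mitochondrial stress responses, 17 of 26 genes were positive with a median of 0.18, and 7 were called higher and 5 lower among the libraries named 9 to 12 (9.47% and 8.52% of all genes were; median 0.21); the serine synthesis enzyme Psat1 had 0.95 and the asparagine synthetase Asns 0.70 (adjusted p = 0.196 and 0.208). Cytosolic ribosomal proteins had a median of 0.21 with 24 of 25 positive and of 0.14 among the libraries named 9 to 12 with 1 called higher, and Rpl4 separated the groups, at 12976 to 14394 in Tg-TAC and 10169 to 12508 in Con-TAC (log2 0.25, SE 0.09, adjusted p = 0.228). Of the 36 lists, the members named here as separate, Esrrb, Sirt7, Txn1, Prdx4, Ccnb2 and Rpl4, are all that had groups without overlap.

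Genes that passed in sham hearts were then read in the vehicle TAC libraries, which share no library with them. Of 628 genes called higher in sham and tested in vehicle TAC, 602 (95.9%) had a positive difference (50.1% of all genes did). Of the 628, 310 (49.4%) had it at an unadjusted p under 0.05 (9.03% of all genes did), and 7 (1.11%) had groups without overlap (0.581% of all genes did). Their median was 0.63 in vehicle TAC and 0.76 in sham. Of 248 called lower in sham, 247 (99.6%) were negative (49.9% of all genes were), and 121 (48.8%) were so at an unadjusted p under 0.05 (7.3% of all genes were). The 248 genes had medians of -0.47 in vehicle TAC and -0.39 in sham, and 1 (0.403%) had groups without overlap (0.394% of all genes did). None of these genes was called over the 12 vehicle TAC libraries. Among those named 9 to 12, 400 (63.7%) were called higher and 174 (70.2%) lower in the direction of sham (9.47% and 8.52% of all genes were). Of the genes called with MitoQ, 15 of 16 higher and 8 of 8 lower kept their sign in vehicle TAC (50.1% of all genes were positive and 49.9% negative).

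**Figure D4:**
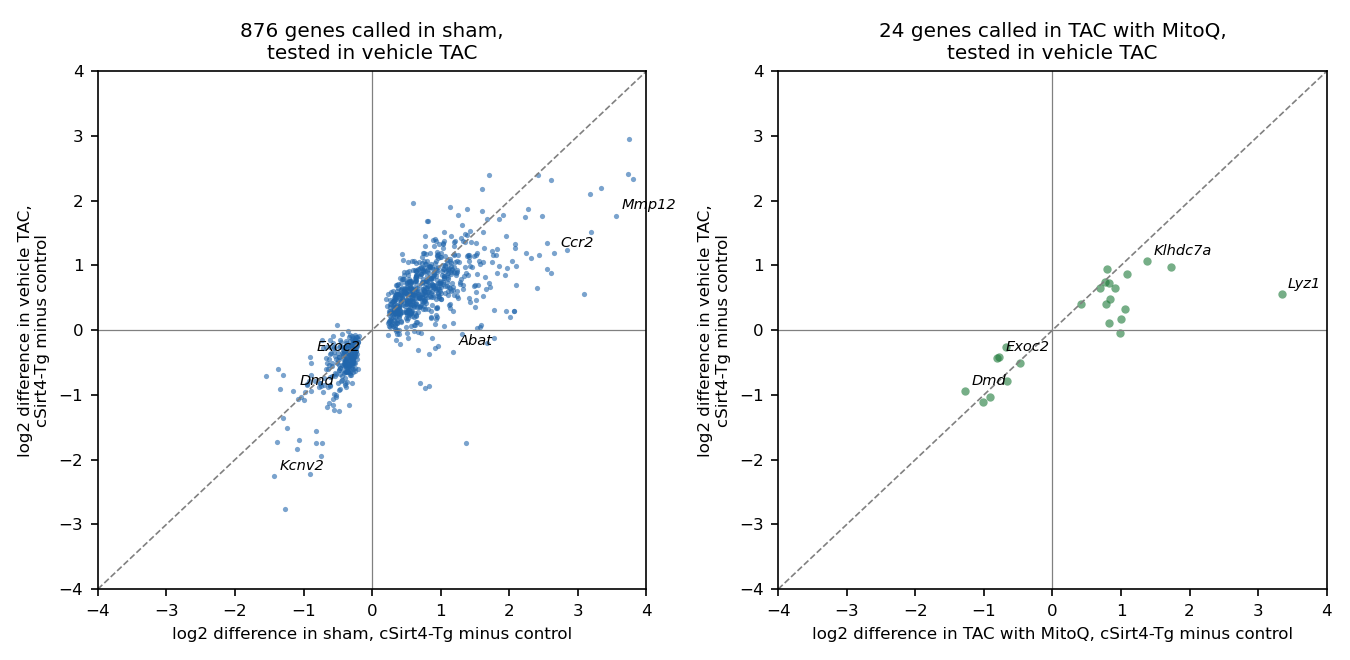
Log2 difference, cSirt4-Tg minus control, in vehicle TAC (vertical) against that in sham (left, 876 genes) or in TAC with MitoQ (right, 24 genes), for the genes called there and tested in vehicle TAC; the dashed line marks equal values. Most points lie in the quadrants of equal sign, and Abat (1.17 in sham, -0.33 in vehicle TAC) is an exception.

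A set of 19 genes was called in the same direction in sham and with MitoQ, 7 lower and 12 higher. In vehicle TAC 18 of the 19 had the same sign (50.1% of all genes were positive and 49.9% negative). At an unadjusted p under 0.05 there were 12 of them (9.03% of all genes were higher and 7.3% lower at this p). None was called and none separated the groups. The 19 genes had a median size of 0.56 on the log2 scale in vehicle TAC against 0.93 in sham and 0.83 with MitoQ. Besides Dmd they include Exoc2, a subunit of the exocyst, at 367 to 544 in Tg-TAC and 468 to 632 in Con-TAC (log2 -0.42, SE 0.12, limma adjusted p = 0.196), and Ctnna3, an alpha-catenin of the cardiac cell junction, at 118 to 628 in Tg-TAC and 452 to 828 in Con-TAC (log2 -1.04, adjusted p = 0.196). Among the higher genes Klhdc7a was 175 to 515 in Tg-TAC and 115 to 191 in Con-TAC (log2 1.06, SE 0.23, adjusted p = 0.133). Ndnf, a secreted factor, was 183 to 512 in Tg-TAC and 149 to 213 in Con-TAC (log2 0.98, SE 0.23, adjusted p = 0.147), and Ndrg4, an NDRG family member, was 6467 to 13966 in Tg-TAC and 5188 to 10682 in Con-TAC (log2 0.74, adjusted p = 0.196). The overlap of the groups came from Tg-TAC 6 in Ctnna3, Klhdc7a, Ndnf and Ndrg4, and from Con-TAC 5 in Exoc2. Mgl2, a macrophage lectin, was the exception to the sign, with -0.04 in vehicle TAC, 0.72 in sham and 0.99 with MitoQ.

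The test of the difference between the genotype effects called no gene. For vehicle TAC minus sham limma called 0 of 15951 genes (0.0%), with 749 at an unadjusted p under 0.05, and edgeR called 0. For vehicle TAC minus MitoQ limma called 0 of 15757 genes (0.0%), with 986 at an unadjusted p under 0.05, and edgeR called 0. Without Con-Sham 4 the first count was 1, and without Tg-TAC 2 the second was 6. Against sham the lowest p was that of Abat, the GABA transaminase, which was 498 to 1066 in Tg-TAC and 842 to 1329 in Con-TAC, with a log2 difference of -0.33 in vehicle TAC and 1.17 in sham (difference -1.51, limma adjusted p = 0.148). Against MitoQ the smallest p were those of mitochondrial transcripts and their nuclear copies, with mt-Co3 at -1.49 in vehicle TAC and 0.07 with MitoQ (difference -1.56, adjusted p = 0.329). Maged2 differed by 0.50 more in vehicle TAC than in sham (unadjusted p = 0.00247, adjusted p = 0.982) and by 0.69 more than with MitoQ (unadjusted p = 0.000212, adjusted p = 0.371).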

How the data were processed

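Whole-heart total RNA was extracted with the RNeasy Fibrous Tissue kit and sequenced from NEB Ultra II Directional libraries, per the labels' protocols. Trim Galore, STAR and mm39 are named in the submitters' processing notes, with versions and the tools for counting and normalization not given in the sources used here. As for units, the values are a signal, the normalized read count of each gene in each library, as the authors deposited it. Every value was a whole multiple of 1 step per library (100% within 0.01 read), so reads were recovered by division. They gave depths of 14.8 to 55.4 M reads in the 12 libraries; edgeR 4.0.16 called 1 gene and DESeq2 1.42.0 called 434 on these reads.

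Genes were tested where 6 or more of the 12 libraries had a value of 10 or more. The scale was log2(value + 1), on which the change of low genes is understated, with limma 3.58.1 in R 4.3.3 (trend, robust, two-sided, Benjamini-Hochberg over all genes tested, threshold 0.05). Sham and MitoQ pairs were fitted likewise, and differences of effects on their 24 libraries. Sirt4 was tested by exact permutation. The limma p-values set a group difference against the spread of libraries within groups, moderated across genes. The permutation p of Sirt4 sets it against all other divisions of the 12 libraries into groups of 6. The limma fit of 6 against 6 libraries was also run on simulated counts with known changed genes, drawn gene by gene from Con-TAC means and spreads. No simulated library was set to lie with the opposite group, so the simulation does not cover libraries such as Tg-TAC 6 and Con-TAC 6.

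The comparison, the 36 gene lists and the naming rule were chosen with earlier results of these data known. The rule takes Sirt4, called genes with the largest differences, called list members, the 5 genes with the smallest p of each difference of effects, the genes called alike in sham and MitoQ, and a set of hypertrophy, matrix, immune and metabolic genes whatever their values; genes may be left out. Phlda3, Bola2, Eif6, Plac9 and Selenom were added for their p, and further list members for their p or because their groups did not overlap, after values were seen. Libraries with the same replicate number did not deviate together (r = -0.527 to 0.0386 across genes, the lowest being replicate 6). Such correlations cannot show whether the design was paired. The labels name no pairs, so the libraries were taken as unpaired. Alternatives were other scalings, pseudocounts, filters, tools, weights, covariates and left-out libraries.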

Additional observations from a re-analysis of the deposited data

Results flagged for a closer look

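A value was singled out where the highest or the lowest of the 6 libraries of a group lay farther from the rest than Dixon's 95% critical value allows. For values of a normal distribution this happens in about 1 of 20 groups. It occurred in 25 of 108 groups examined. These values were not on a log scale and all came from the same 12 libraries, so the rates cannot be compared. Tg-TAC 6 was the highest of its group in Sirt4 (472.9) and Acacb (11480), and the lowest in Ankrd1 (44110) and Ndrg4 (6467). Tg-TAC 4 was the highest of its group in Ccr2 (476.1), Spp1 (779.6), Adipoq (2678) and Plac9 (1200), and in the percentage of reads on Rn18s-rs5 (11.84). Tg-TAC 2 was the highest of its group in mt-Co3 (226.9) and in recovered reads (55380000), and Tg-TAC 1 in Prdx4 (602.3). Con-TAC 6 was the highest control in Myh7 (204800 normalized read counts), Col1a1 (9575), Postn (16580), Ccn2 (19860), Tgfb2 (1934), Cybb (758.3), Spp1 (888.0) and Adipoq (21.35), and the lowest in mt-Co3 (185.0). Con-TAC 2 was the highest control in Rn18s-rs5 (2891000 normalized read counts, 9.224% of reads), Con-TAC 4 in Atf4 (2579), and Con-TAC 5 was the lowest control in Exoc2 (468.1). The causes of these values were not tested.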

How the results depend on the processing

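The count of genes called in vehicle TAC, 1 over the 12 libraries, was 3275 with array weights, 1113 with all 36 libraries in the fit, 434 by DESeq2, 2695 among the libraries named 9 to 12, 3378 among those named 7 to 14 (added after the data were seen), 726 without Tg-TAC 4 and 6, and 0 with the Rn18s-rs5 share as a covariate (1064 at an unadjusted p under 0.05). With the replicate block it was 0 (1552 at an unadjusted p under 0.05), although the labels name no pairs of libraries. Leaving out 1 library gave 1 to 1336 calls, 1336 without Tg-TAC 6, 10 without Con-TAC 6 and 6 without Tg-TAC 2. Other pseudocounts, filters and scalings, edgeR and a covariate for name numbers of 20 and over each gave 1. In sham the count of 884 was 131 with all 36 libraries and 572 to 1014 without 1 library, and with MitoQ the count of 26 was 12 and 10 to 629, the 629 without the third MitoQ control. The differences of effects gave 0 to 1 calls against sham and 0 to 6 against MitoQ when 1 library was left out. The log2 difference of Sirt4 was 0.00 to 0.14 under the scalings, pseudocounts and left-out libraries, but -0.07 among the libraries named 9 to 12 and -0.08 among those named 7 to 14. Of 76 other named genes, 4 turned direction somewhere: Myh7 to -0.10 and H2-Ab1 to -0.29 with the Rn18s-rs5 share; H2-Ab1 to -0.11 without both Tg-TAC 4 and Tg-TAC 6, and to between -0.13 and 0.35 when single libraries were left out; Mgl2 to 0.0176 at an equal total outside the mitochondrial genome and -0.15 to 0.0871 without 1 library; and Acta1 to 0.75 with array weights, 0.44 by edgeR, 0.45 by DESeq2, 0.28 with the Rn18s-rs5 share, 0.24 and 0.49 among libraries named 9 to 12 and 7 to 14, 1.07 without Tg-TAC 4 and 6, and -0.44 to 0.43 without 1 library. Scaling to that total shifted the median over all genes by 0.06 on the log2 scale. The causes were not tested. Tg-TAC 4, at 14.8 M reads, limits the precision of low genes.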

Other observations

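Other lists were read over the same 12 libraries, with no member called. Among the libraries named 9 to 12, 9.47% of all genes were called higher and 8.52% lower. Cytokine and chemokine genes were positive in 17 of the 18 tested (median 0.76 on the log2 scale; 1.13 among the libraries named 9 to 12, with 6 called higher), with mean log2 values of 6.41 to 8.20 in Tg-TAC and 6.09 to 7.83 in Con-TAC, the highest control being Con-TAC 6. Immediate early genes were positive in 15 of 20 (median 0.52; 0.68 among the libraries named 9 to 12, with 6 called higher). Antigen presentation genes had a median of 0.17 (0.56 among the libraries named 9 to 12, with 1 called higher), and their mean log2 value reached 10.7 in Tg-TAC 4 and 9.91 among the remaining Tg-TAC libraries, against 10.8 in Con-TAC 6 and 9.55 among the remaining controls.

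Endothelial markers had a median of -0.14 over 16 members, 5 of them positive. Smooth muscle and pericyte markers had a median of 0.18 over 14 members, 10 of them positive. Among the libraries named 9 to 12 these medians were -0.12, with 2 called lower, and 0.39, with 5 called higher and 2 lower. Circadian clock genes had a median of -0.11 (4 of 19 positive), erythroid markers -0.05 and Schwann cell markers 0.32; among the libraries named 9 to 12 the medians were -0.15 with 1 called higher, -0.29 with none called and 0.45 with 2 called higher. Of 10 adipocyte markers 5 passed the filter on low values, with a median of 2.41 over the 12 libraries and 2.83 among those named 9 to 12 and none called; their mean log2 value was 12.5 in Tg-TAC 4 and 3.27 to 7.85 in the other Tg-TAC libraries, against 3.17 to 7.65 in Con-TAC.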
